A study of Homo sapiens with 4 samples.

Results

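The 10 genes described here encode the machinery of RNA interference and microRNA action: DGCR8, XPO5 and DICER1, which act on microRNA precursors, EIF2C1 to EIF2C4, the 4 Argonaute genes now named AGO1 to AGO4, and TNRC6A, TNRC6B and TNRC6C, the GW182 family. They were chosen by symbol, and all 10 were found among the 23228 gene symbols of the count tables. The cells were U87 MG, an established line of human glioblastoma, and RNA was sequenced 72 hours after they had been transfected either with control siRNA or with PELP1 siRNA. PELP1 is a scaffold protein of nuclear receptor and ribosome assembly complexes. Each group held 2 libraries of total RNA from otherwise untreated cells of the same line, and both groups had received the transfection reagent and a small interfering RNA. The sources used here do not say whether libraries 1 and 2 came from separate cultures, so that the p-values cover no more than library-to-library spread, which may be technical.

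A microRNA is cut from its primary transcript in the nucleus by the Microprocessor, made of the nuclease DROSHA and the RNA-binding protein DGCR8. The hairpin is carried to the cytoplasm by exportin-5 (XPO5) and cut again by DICER1, and 1 strand is loaded into an Argonaute protein. Argonaute proteins bind target mRNAs and recruit a GW182 protein, which in turn recruits the deadenylases and decapping factors that silence the mRNA. An siRNA enters at the Argonaute step, and among the human Argonautes AGO2 (EIF2C2) is the one best known for cutting a matched target.

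Reads assigned to genes numbered 18670162 to 22858988 per library, and the members had between 196 and 5167 counts in a library, so that all 10 passed the filter on low counts. PELP1 was lower in both PELP1 siRNA libraries (15.2 and 17.7 CPM, counts scaled to a common library size) than in both control libraries (74.0 and 78.1 CPM), the direction that the labels call for. The cell line was checked on a list of 10 astroglial and glioblastoma markers. VIM, CD44, SLC1A3 and NES were present at means of 33.6 to 7081 CPM. GFAP (means of 1.37 CPM with control siRNA and 1.53 with PELP1 siRNA) and OLIG2 (1.81 and 1.29 CPM) were low. S100B, AQP4, ALDH1L1 and SOX2 were under 1 CPM, and AQP4 and ALDH1L1 had no count. The summed level of that list was 9579 and 9723 CPM in the control libraries and 7716 and 8117 CPM in the PELP1 siRNA libraries. Most of it was VIM (means of 7081 CPM with control siRNA and 5833 with PELP1 siRNA) and CD44 (2470 and 1979 CPM). NES was also lower (47.8 and 33.6 CPM), whereas SLC1A3 was higher (48.7 and 68.2 CPM). The part of this shift in the results on the members was not tested. The summed level of the epithelial markers was 1.91 to 2.49 CPM, of the endothelial markers 13.0 to 17.1 CPM, of the melanocyte markers 16.5 to 24.2 CPM, of the neuronal markers 58.0 to 78.3 CPM and of the immune markers 386 to 428 CPM. Most of these sums came from 1 gene each: KDR (13.7 CPM with control siRNA) for the endothelial list, MITF (23.2 CPM) for the melanocyte list, SNAP25 (48.3 CPM) for the neuronal list and CD68 (424 CPM) for the immune list.

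With PELP1 siRNA, EIF2C4, TNRC6B and EIF2C1 rose, TNRC6A and DGCR8 fell, and the other 5 members did not pass the threshold, an adjusted p under 0.05 over all genes tested in edgeR's quasi-likelihood test. In the GW182 family 1 member fell and 1 rose, whereas no Argonaute gene was called lower. In bulk RNA a change in all cells and a change in some of them cannot be told apart. The count of 5 of 10 members stood against 27.9% of the 13234 genes tested, the 3 rises against 12.9% of genes higher and the 2 falls against 15.0% of genes lower. Scaling by total counts moved all genes from 1712 higher and 1980 lower to 2272 higher and 1597 lower, and left the members at 3 higher and 2 lower. The libraries of the groups did not overlap for 8 members, against 64.2% of the genes tested, and overlapped for EIF2C3 and DICER1. The members' median absolute log2 fold change was 0.25, beside 0.18 over all genes tested. The number of members called depended on single libraries. It was 1 higher with either control library left out, 1 lower without control library 2, and 4 lower without PELP1 siRNA library 1. Such a fit takes the spread of the lone library's group from the other group. The PELP1 siRNA libraries differed more from each other than the control libraries did, with a mean chi-square per gene of 7.13 beside 2.09. Without control library 1 or 2 the log2 fold change was 0.23 and 0.21 for EIF2C1, beside 0.22 in the reported fit. For TNRC6B it was 0.34 and 0.21, beside 0.28.

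**Figure D1:**
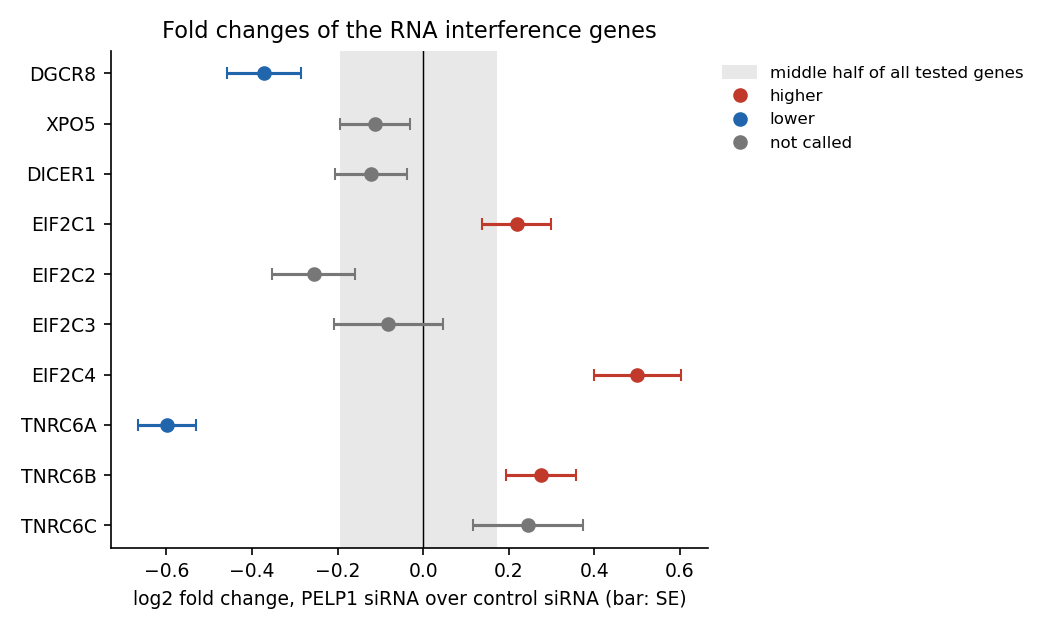
Log2 fold change of each of the 10 genes (points; bars, SE) with PELP1 siRNA against control siRNA, coloured by the call at an adjusted p under 0.05, over the range between the quartiles of all tested genes (grey band, from -0.19 to 0.17). EIF2C4, TNRC6B, TNRC6C and EIF2C1 lie to the right of the band, and EIF2C2, DGCR8 and TNRC6A to the left.

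The 7-base words CTCAGTT and GCCTTGA had been picked in earlier work on these same fold changes because they were frequent in the 3' UTRs of the genes that fell. They were looked for in the members' longest annotated 3' UTRs, on the transcript strand alone, as a description. The sites of the genes that were called are shown so that those of genes that fell can be read beside those of genes that rose. Capitals mark the word, each site runs 5' to 3' on the transcript strand, and positions are those of the word on GRCh37.
TNRC6A, chr16:24835627-24835633, plus strand: tctctactatGCCTTGAtgttgcctac
TNRC6A, chr16:24836624-24836630, plus strand: tcatatcattGCCTTGAttctaactgt
DGCR8, chr22:20099357-20099363, plus strand: tggaaggcgaGCCTTGAttgtctgaac
TNRC6B, chr22:40721543-40721549, plus strand: cccgctgggtGCCTTGAgcatgccctc
TNRC6B, chr22:40727586-40727592, plus strand: ctctctcatgGCCTTGAaatgtattat
TNRC6B, chr22:40731724-40731730, plus strand: ttatgtgcaaCTCAGTTgcttacatta
EIF2C1, chr1:36386975-36386981, plus strand: gtctctgttgGCCTTGAagcaagcatc
EIF2C1, chr1:36392972-36392978, plus strand: acaccaaagaCTCAGTTtcttgaaatt
EIF2C1, chr1:36393592-36393598, plus strand: gaggattgtaCTCAGTTgctctcctca
EIF2C1, chr1:36394734-36394740, plus strand: taagagcagaCTCAGTTgggaatgagt

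At least 1 of these words lies in the 3' UTRs of 8 of the 10 members and of 27.1% of the 12257 tested genes with an annotated 3' UTR. The members' 3' UTRs were longer, with a median of 4278 bases beside 1549 bases, and held 0.242 words per kb beside 0.172 over all of these genes. GCCTTGA alone lies in 6 of the 10 members and in 12.9% of the 12257 genes. The 2 members that fell carry it: TNRC6A has 2 copies in 2414 bases and DGCR8 has 1 in 1764 bases. Of the 3 members that rose, TNRC6B carries 3 words in 12567 bases, 2 of them GCCTTGA. EIF2C1 carries 4 in 10925 bases, 1 of them GCCTTGA, whereas EIF2C4 carries none in 4285 bases. Of the members that were not called, DICER1 carries 2 words and EIF2C2 carries 3, with 1 GCCTTGA in each. XPO5 and EIF2C3 carry 1 CTCAGTT each, and TNRC6C carries none. Which of the annotated 3' UTRs these cells use is not known from counts per gene. Any part of the words in the members' changes was not tested.

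Of the members that act on precursors, DGCR8 alone fell past the threshold. DGCR8 (chromosome 22, 20067744 to 20099400, plus strand) stood at 50.6 and 53.5 CPM in control libraries 1 and 2 and at 41.6 and 38.8 CPM in PELP1 siRNA libraries 1 and 2. Both PELP1 siRNA libraries were below both control libraries. Its mean fell from 52.0 ± 2.10 to 40.2 ± 1.98 CPM (SD, n = 2 per group), with a log2 fold change of -0.37 (SE 0.086, edgeR adjusted p = 0.00228, and 0.131 without control library 2). The exons of DGCR8 share 9.57% of their bases with other annotated genes, among them the microRNA genes MIR3618 and MIR1306 on the same strand and a non-coding gene on the opposite strand. MIR3618 and MIR1306 had no count in any library.

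XPO5 and DICER1 were not called. XPO5 (chromosome 6, 43490072 to 43543775, minus strand), the exporter of hairpin precursors, stood at 54.2 and 55.1 CPM with control siRNA and at 49.9 and 51.2 CPM with PELP1 siRNA. The groups did not overlap, but the log2 fold change of -0.11 (SE 0.082) had an adjusted p of 0.323 (edgeR). DICER1 (chromosome 14, 95552565 to 95624347, minus strand), the cytoplasmic nuclease, stood at 102.7 and 92.2 CPM with control siRNA and at 97.5 and 81.3 CPM with PELP1 siRNA, and the groups overlapped. Its log2 fold change was -0.12 (SE 0.084, edgeR adjusted p = 0.294). The value depended on which PELP1 siRNA library was used: without PELP1 siRNA library 1 the log2 fold change was -0.26, and without library 2 it was 0.0079.

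**Figure D2:**
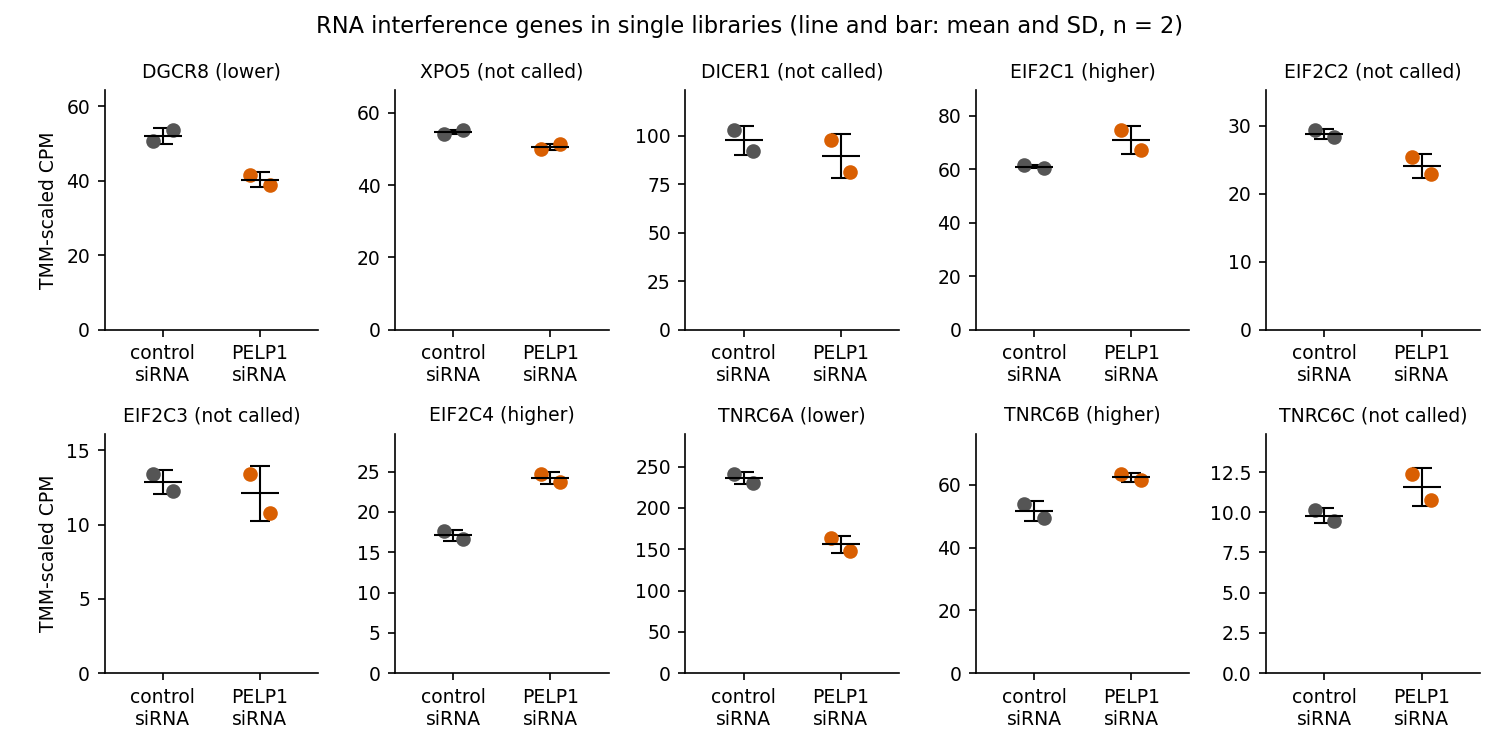
TMM-scaled CPM of the 10 genes in each library (points; grey, control siRNA; orange, PELP1 siRNA; line and bar, mean and SD, n = 2), each panel with its own axis from 0. The groups lie apart in 8 panels and overlap in those of DICER1 and EIF2C3.

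Among the Argonautes, EIF2C4 moved most. EIF2C4 (chromosome 1, 36273617 to 36323491, plus strand), which encodes AGO4, stood at 17.6 and 16.6 CPM with control siRNA and at 24.7 and 23.7 CPM with PELP1 siRNA. The lower PELP1 siRNA library was well above the higher control library. Its mean rose from 17.1 ± 0.666 to 24.2 ± 0.753 CPM (SD, n = 2 per group), a log2 fold change of 0.50 (SE 0.10, edgeR adjusted p = 6.57e-04) that was larger in size than that of 86.6% of the genes tested. It was called under all 14 alternative settings, with adjusted p from 1.90e-06 to 0.0423.

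EIF2C1 (chromosome 1, 36335409 to 36396133, plus strand), which encodes AGO1, stood at 61.4 and 60.5 CPM with control siRNA and at 74.6 and 67.2 CPM with PELP1 siRNA. The groups did not overlap, and PELP1 siRNA library 2 was the nearer to the controls. The mean rose from 61.0 ± 0.645 to 70.9 ± 5.19 CPM (SD, n = 2 per group), with a log2 fold change of 0.22 (SE 0.080, edgeR adjusted p = 0.0450). This call was lost with DESeq2 (adjusted p = 0.0989), with the replicate number as a block (0.0671), without control library 1 (0.344) or 2 (0.386) and without PELP1 siRNA library 1 (0.0578, log2 fold change 0.14).

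EIF2C2, which encodes the slicing Argonaute AGO2, lay just outside the threshold on the lower side. It stood at 29.3 and 28.3 CPM with control siRNA and at 25.3 and 22.8 CPM with PELP1 siRNA, and the groups did not overlap. Its log2 fold change was -0.26 (SE 0.097, edgeR adjusted p = 0.0519). It was called under 3 of the 14 alternatives, with adjusted p of 0.0375 with no filter on low counts, 0.0429 with a stricter filter and 0.00253 without PELP1 siRNA library 1. Under the other 11 the adjusted p ran from 0.0517 to 0.392, the highest being without control library 1. EIF2C3 (chromosome 1, 36396319 to 36538101, plus strand), which encodes AGO3, stood at 13.4 and 12.3 CPM with control siRNA and at 13.4 and 10.8 CPM with PELP1 siRNA. These groups overlapped, and the log2 fold change was -0.082 (SE 0.13, edgeR adjusted p = 0.669), but -0.24 without PELP1 siRNA library 1 (0.142) and 0.070 without library 2 (0.703).

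EIF2C4, EIF2C1 and EIF2C3 lie head to tail on the plus strand of chromosome 1 within 264 kb. Only 185 bases separate the annotated end of EIF2C1 from the start of EIF2C3, and 11917 bases separate EIF2C4 from EIF2C1. The outer pair thus had log2 fold changes of 0.50 and -0.082, with 0.22 for the gene between them. Whether these fold changes differ from each other was not tested.

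The make-up of the Argonaute family was read from ratios within a library, which do not depend on how libraries are scaled. The count of EIF2C4 was 0.600 and 0.589 times that of EIF2C2 in the control libraries and 0.976 and 1.04 times in the PELP1 siRNA libraries. The count of EIF2C1 was 2.10 and 2.14 times that of EIF2C2 in the controls and 2.94 and 2.95 times with PELP1 siRNA. In both ratios the libraries of a group lay close together and the groups lay apart. To set genes beside each other, counts were divided by exon lengths from GENCODE v44lift37. These may differ from the annotation the reads were counted on, so that shares between genes are uncertain. By this measure EIF2C1 held 47.4 to 48.8% of the family's summed CPM per kb in all 4 libraries. The share of EIF2C4 was 25.7 and 25.2% with control siRNA and 30.6 and 32.1% with PELP1 siRNA, and that of EIF2C2 was 20.04 and 19.997% in the controls and 14.7 and 14.5% with PELP1 siRNA. EIF2C3 held 6.87 and 6.51%, then 5.83 and 5.14%. The family's sum was 9.23 and 8.92 CPM per kb with control siRNA and 10.9 and 9.92 CPM per kb with PELP1 siRNA.

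TNRC6A fell, with the smallest adjusted p of the 10 members in the reported fit. TNRC6A (chromosome 16, 24621530 to 24838953, plus strand) encodes GW182 itself, the scaffold between Argonaute and the deadenylases. It stood at 241 and 231 CPM in the control libraries and at 163 and 148 CPM in the PELP1 siRNA libraries, and the groups were far apart. Its mean fell from 235.9 ± 7.48 to 155.8 ± 10.6 CPM (SD, n = 2 per group), with a log2 fold change of -0.60 (SE 0.068, edgeR adjusted p = 4.71e-07) that was larger in size than that of 90.7% of the genes tested. It was called lower under all 14 alternative settings, with log2 fold changes from -0.67 to -0.53. Its fold change was the largest in size of the 10 members in the reported fit, but without PELP1 siRNA library 2 it was -0.53 beside 0.54 for EIF2C4, and with total counts -0.55 beside 0.55.

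Its paralogs had fold changes of the opposite sign. TNRC6B (chromosome 22, 40440821 to 40731812, plus strand) stood at 53.9 and 49.4 CPM with control siRNA and at 63.5 and 61.4 CPM with PELP1 siRNA, and the groups did not overlap. The mean rose from 51.6 ± 3.21 to 62.4 ± 1.43 CPM (SD, n = 2 per group), with a log2 fold change of 0.28 (SE 0.082, edgeR adjusted p = 0.0144). Leaving out control library 1 or 2 ended this call (adjusted p = 0.121 and 0.385). TNRC6C (chromosome 17, 75954785 to 76104903, plus strand), the least abundant of the family, stood at 10.1 and 9.46 CPM with control siRNA and at 12.4 and 10.7 CPM with PELP1 siRNA. The groups did not overlap, but the log2 fold change of 0.24 (SE 0.13) had an adjusted p of 0.166 (edgeR). It was 0.35 (adjusted p = 0.0311) without PELP1 siRNA library 2 but 0.14 (0.454) without library 1, and under the other 12 alternatives the adjusted p ran from 0.0766 to 0.584. TNRC6C shares 12.3% of its exon bases with TMC6 on the opposite strand, and the strand setting of the counting is not given in the sources used here.

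Within a library, the count of TNRC6A was 4.47 and 4.67 times that of TNRC6B with control siRNA and 2.57 and 2.41 times with PELP1 siRNA. Per kb of exon, TNRC6A held 83.9 and 84.4% of the family's summed CPM in the controls and 74.8 and 74.1% with PELP1 siRNA. The share of TNRC6B was 12.2 and 11.7% with control siRNA and 18.9 and 19.9% with PELP1 siRNA. TNRC6A nevertheless stayed the most abundant of the 3 genes in every library. The family's sum per kb was 22.2 and 21.1 with control siRNA and 16.8 and 15.4 with PELP1 siRNA, so that it was lower in both PELP1 siRNA libraries.

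**Figure D3:**
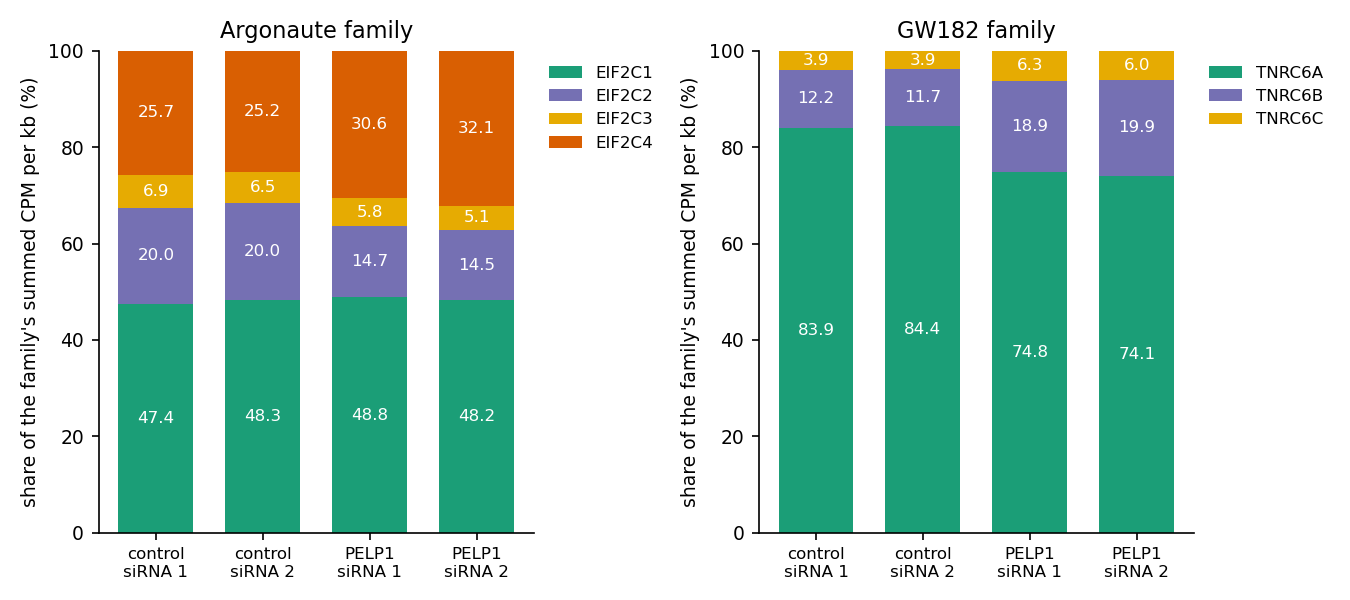
Share of each gene in the summed CPM per kb of exon of the Argonaute family (left) and the GW182 family (right) in each of the 4 libraries, in percent. The share of EIF2C2 is 20.04 and 19.997% in the control libraries and 14.7 and 14.5% with PELP1 siRNA, and that of TNRC6A is 83.9 and 84.4%, then 74.8 and 74.1%.

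Per kb of exon, TNRC6A was the most abundant of the 10 members with control siRNA, at 18.2 ± 0.577 CPM per kb (SD, n = 2), and EIF2C3 the least, at 0.607 ± 0.0380. DGCR8 (7.10 ± 0.286), XPO5 (6.45 ± 0.0758), DICER1 (4.40 ± 0.333) and EIF2C1 (4.34 ± 0.0459) followed TNRC6A in that order. TNRC6B (2.58 ± 0.160), EIF2C4 (2.31 ± 0.0897), EIF2C2 (1.82 ± 0.0467) and TNRC6C (0.841 ± 0.0394) came next. With these lengths DICER1 and EIF2C1 differed by less than the SD of DICER1. The order of the members rests on annotated lengths, which for several of them include long 3' UTRs. Whether the annotation the reads were counted on held these 3' UTRs is not known, and the canonical lengths come from the same release. With the length of 1 canonical transcript in place of all exons, DICER1 came to 9.38 CPM per kb and EIF2C1 to 4.45, so that they lay apart. DGCR8 came to 11.5, XPO5 to 10.3 and TNRC6A to 27.8, and the order with control siRNA stayed the same. With PELP1 siRNA, XPO5 (5.96 ± 0.109) stood above DGCR8 (5.49 ± 0.270), EIF2C1 (5.05 ± 0.370) above DICER1 (4.04 ± 0.516) and EIF2C4 (3.26 ± 0.101) above TNRC6B (3.12 ± 0.0715). With canonical lengths, only the exchange of XPO5 and DGCR8 remained.

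The members are long transcripts, with at least 7326 bases of exon. The part of length in the differences between their libraries was not tested. Of the 10, 9 were lower in PELP1 siRNA library 2 than in library 1. Over all genes tested this share was 49.7%, but over the 3985 tested genes with at least as much exon as the shortest member it was 67.0%. In the control pair 8 of the 10 were lower in library 2, beside 47.3% of all genes tested and 52.1% of those long genes. The long genes had 12.0% higher and 18.8% lower calls. With the trend on exon length removed, the members stayed at 3 higher and 2 lower, with a log2 fold change of 0.26 for EIF2C1, 0.52 for EIF2C4, 0.31 for TNRC6B, -0.56 for TNRC6A and -0.35 for DGCR8.

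**Figure D4:**
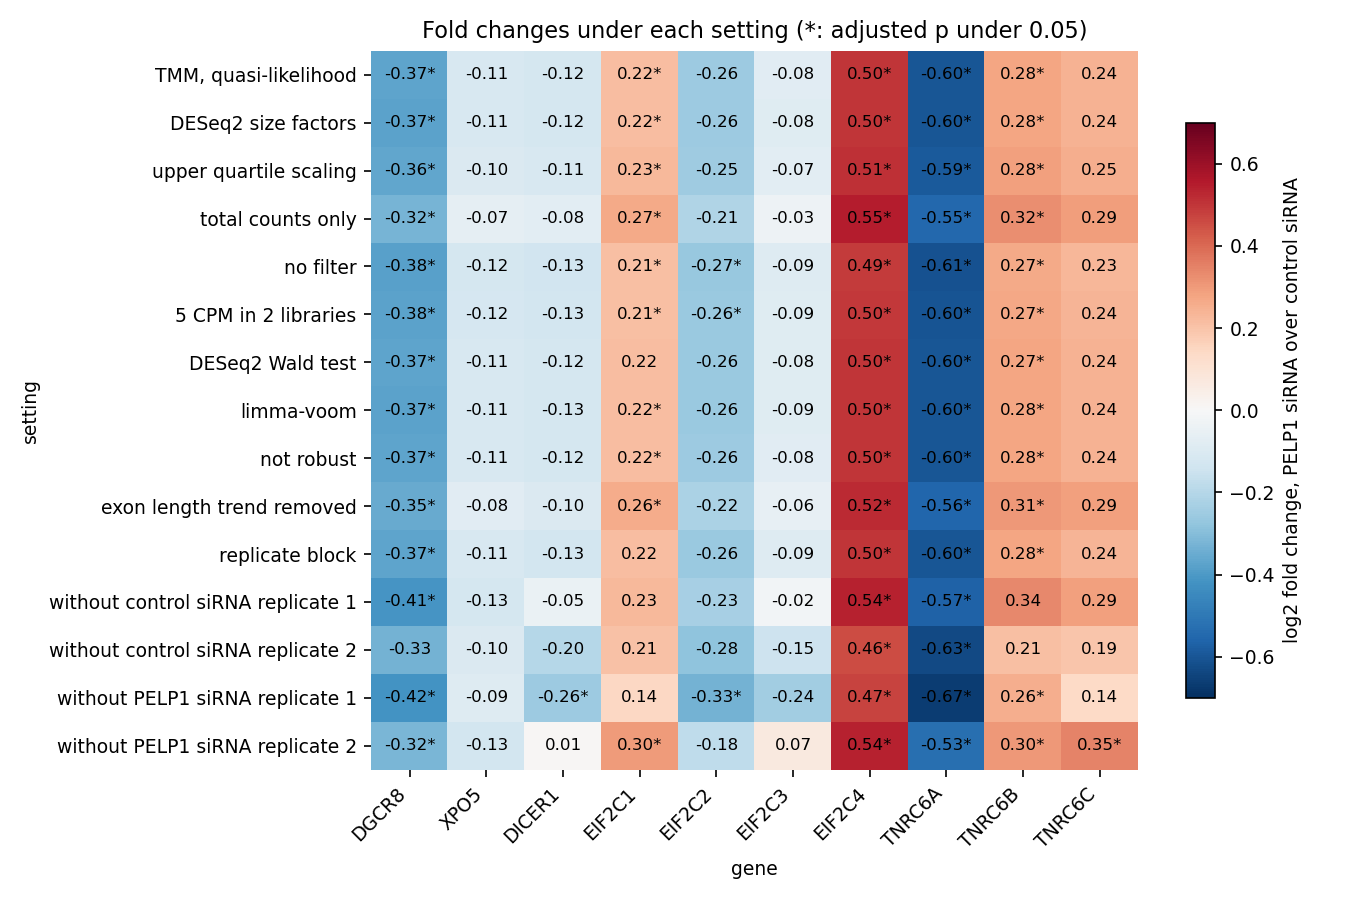
Log2 fold change of each of the 10 genes (columns) under the reported fit (top row) and 14 alternative settings (rows), with a star where the adjusted p is under 0.05. EIF2C4 and TNRC6A carry a star in every row, while EIF2C1 loses it in 5 rows and TNRC6B in 2.

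Other genes of the pathway were taken from 6 lists of 111 symbols, of which 109 were found and 95 tested. With PELP1 siRNA 13 were called higher and 15 lower, and 67 were not called. This share of 29.5% stood beside 27.9% over all genes, and the median log2 fold change was -0.0053. Scaling by total counts gave 20 higher and 13 lower, and DESeq2 gave 6 higher and 12 lower. Leaving out control library 1 gave 3 higher and 5 lower, and leaving out control library 2 gave 4 and 5. Leaving out PELP1 siRNA library 1 gave 22 higher and 21 lower, and library 2 gave 23 and 20.

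Precursor processing was represented by 18 tested genes, with 0 called higher, 3 called lower and 15 not called. There were 0 lower without control library 1 and 1 without control library 2. There were 2 higher with total counts, with the length trend removed or without PELP1 siRNA library 1, and 3 higher without PELP1 siRNA library 2. DROSHA, the nuclease partner of DGCR8, had a mean of 90.4 CPM in the control libraries and of 93.2 CPM in the others (log2 fold change 0.044, edgeR adjusted p = 0.700), and had a log2 fold change of -0.019 without PELP1 siRNA library 1. The DICER1 partners TARBP2 (0.20, adjusted p = 0.0717) and PRKRA (0.11, adjusted p = 0.333) were not called. TARBP2 was called with total counts (0.0280), with the length trend removed (0.0470) and without PELP1 siRNA library 1 (1.97e-04). TSN, a subunit of the nuclease C3PO that removes the passenger strand, fell from 159.7 to 128 CPM (-0.31, adjusted p = 0.00100, but 0.0616 without control library 1 and 0.0905 without control library 2). ADARB1, an adenosine deaminase that edits double-stranded RNA, fell from 10.5 to 6.73 CPM (-0.63, adjusted p = 0.00156, but 0.0632 without control library 1).

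For the 20 tested genes that load or accompany Argonaute, 0 were called higher, 6 lower and 14 not at all, with 2 lower without control library 1 and 1 without control library 2. Without PELP1 siRNA library 2 there were 3 higher and 7 lower, and 1 was higher without PELP1 siRNA library 1, with total counts, with upper quartile scaling or with the length trend removed. Total counts gave 4 lower. IPO8, an importin that binds Argonaute proteins, fell from a mean of 147 to 90.6 CPM, or by 0.70 on the log2 scale (edgeR adjusted p = 1.95e-07), which held under all 14 alternative settings. HSP90AA1, a chaperone that holds Argonaute open for loading, fell from 2087 to 1730 CPM (-0.27, adjusted p = 0.00127, but 0.147 without control library 2).

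Deadenylases and decapping factors act downstream of GW182. The 17 tested deadenylation genes gave 6 rises and 1 fall, with 10 not called, beside 12.9% of all genes tested called higher. Subunits of the CCR4-NOT complex make up most of this list. Of these, CNOT1, CNOT2, CNOT4 and RQCD1 were not called, with log2 fold changes of 0.070, 0.047, 1.01e-04 and -0.0053. All 6 higher genes encode subunits of the CCR4-NOT complex, and their count was 1 with DESeq2, 3 with the replicate block and 0 with either control library left out. There were 2 lower with either PELP1 siRNA library left out. Among them, CNOT6L, a catalytic subunit, had a log2 fold change of 0.30 (edgeR adjusted p = 0.0214), which DESeq2 did not call (0.0768). That of CNOT6, its paralog, was 0.24 (adjusted p = 0.0201), or 0.14 without PELP1 siRNA library 1 (adjusted p = 0.0204). PAN2, the catalytic subunit of the other deadenylase, fell from 36.3 to 24.8 CPM (-0.55, adjusted p = 1.36e-04) and was called in every setting, but 19.5% of its exon bases are shared with an antisense gene. The 13 tested decapping and decay genes gave 2 rises and 0 falls, with 11 not called. There was 1 rise with either control library left out, and there were 5 with total counts and 4 with the length trend removed. Without PELP1 siRNA library 1 there were 6 rises and 2 falls, and without library 2 there were 6 and 1. DCP2, the decapping enzyme, rose from 51.4 ± 0.138 to 81.5 ± 2.02 CPM (SD, n = 2 per group; log2 fold change 0.67, adjusted p = 7.12e-07) and was called under all 14 alternative settings. Its cofactor DCP1A rose from 41.4 to 50.4 CPM (0.28, adjusted p = 0.0157, but 0.227 without control library 1 and 0.245 without control library 2).

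**Figure D5:**
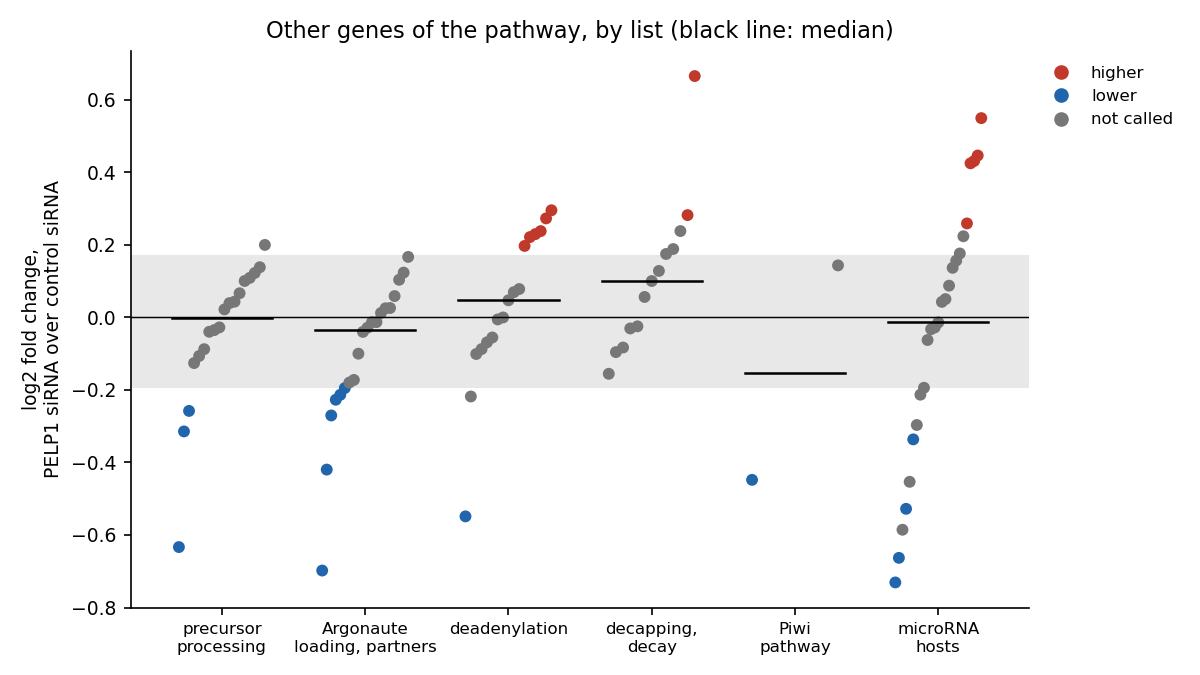
Log2 fold change with PELP1 siRNA against control siRNA of every tested gene in the 6 pathway lists (points, coloured by call; black lines, medians; grey band, range between the quartiles of all tested genes). Higher calls appear in the deadenylation, decapping and host lists and lower calls in all lists but decapping.

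The germline Piwi pathway, the other branch of small RNA silencing, was almost silent in these cells. Of its 12 genes, 2 were tested. PIWIL1 and PIWIL3 had no count, and PIWIL2 and PIWIL4 stood at means of at most 0.163 CPM. Those above 1 CPM were TDRKH, which was not called, and PLD6, a mitochondrial surface protein, which fell from 13.8 to 10.1 CPM (-0.45, edgeR adjusted p = 0.00742, but 0.0563 with DESeq2, 0.0988 without control library 1 and 0.0804 without control library 2). Other genes overlap 24.3% of the exon bases of PLD6.

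Mature microRNAs were not measured. Of 1223 rows for microRNA precursors, 209 had a count. The rows held 615 and 630 counts in all in the control libraries and 405 and 454 with PELP1 siRNA, not scaled by library. MIR5047 gave 120 and 179 of these counts in the controls and 102 and 122 with PELP1 siRNA. It lies within annotated exons of DDX5 on the same strand. Whether such counts come from a precursor or from its host transcript was not tested, so the sums are no measure of precursors. Of the 10 precursor rows tested, none was called in edgeR, and 1 (MIR221) had an unadjusted p under 0.05 (0.0324). Host transcripts, which carry a microRNA in an intron or exon, were more abundant. The 25 tested hosts gave 5 rises and 4 falls, with 16 not called. There were 2 of each without control library 1, 3 rises and 2 falls without control library 2, and 3 of each with DESeq2. Without PELP1 siRNA library 1 there were 7 rises and 6 falls, and without library 2 there were 5 and 6.

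The mature microRNAs of the hosts with the clearest changes are given below from RefSeq (GRCh38.p14), with the seed, bases 2 to 8, in capitals, because hosts of one seed family differed in direction.
miR-17-5p in MIR17HG: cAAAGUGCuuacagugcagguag
miR-20a-5p in MIR17HG: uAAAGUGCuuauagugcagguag
miR-22-3p in MIR22HG: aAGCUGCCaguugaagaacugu
miR-335-5p in MEST: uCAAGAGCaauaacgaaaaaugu
miR-26a-5p in CTDSPL and in CTDSP2: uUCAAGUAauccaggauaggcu
miR-26b-5p in CTDSP1: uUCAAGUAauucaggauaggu

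MIR17HG, the host of the miR-17 cluster, fell from 10.6 ± 0.510 to 6.40 ± 1.38 CPM (SD, n = 2 per group; log2 fold change -0.73, edgeR adjusted p = 7.77e-04), and an antisense gene overlaps 20.5% of its exon bases. MIR22HG, listed as C17orf91, fell from 54.0 to 34.1 CPM (-0.66, adjusted p = 5.59e-06). MEST, an imprinted gene that hosts miR-335, rose from 75.2 to 110.2 CPM (0.55, adjusted p = 3.88e-06), and genes on the opposite strand overlap 27.6% of its exon bases. The hosts of miR-26 are 3 paralogous phosphatase genes, and their microRNAs share the seed UCAAGUA. CTDSP2 rose from 133 to 182 CPM (0.45, adjusted p = 2.14e-05) and CTDSPL from 42.1 to 56.8 CPM (0.43, adjusted p = 5.76e-04, but 0.0788 without control library 1). CTDSP1 fell from 58.8 to 46.6 CPM (-0.34, adjusted p = 0.00596, but 0.201 without control library 1 and 0.0592 without control library 2).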

How the data were processed

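Per the labels' protocols, RNA was taken 72 hours after transfection and made into TruSeq Total RNA libraries read as single ends. The submitters' processing notes name CASAVA 1.8.2, TopHat2 2.0.8b, HTSeq and the build hg19 (GRCh37). For the HTSeq version, the annotation release and the strand setting, the sources used here give nothing. The authors deposited raw read counts per gene symbol, 1 table per library. The 5 summary lines of each table, which held 36.0 to 37.6% of all its counts, were left out. Most of these counts were alignments that were not unique, 26.3 to 27.5% of all counts. Of 23228 symbols, 13234 passed filterByExpr (minimum count 10, minimum total 15).

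The test was the robust quasi-likelihood fit of edgeR 4.0.16 in R 4.3.3 on TMM-scaled counts (group as the only term, 2 libraries per group), with Benjamini-Hochberg adjustment over all genes tested and a threshold of 0.05. Every adjusted p is from this test unless an alternative setting or DESeq2 1.42.0 is named beside it. Ranges over the alternatives include DESeq2 and limma-voom. The biological coefficient of variation was 5.23%. Positions, exon lengths and 3' UTRs are from GENCODE v44lift37 on GRCh37, through RefSeq synonyms for older symbols; 21321 symbols matched. The pipeline was tested on simulated data in which both groups had the same spread for each gene. That test does not cover groups of unlike spread, as these were.

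The members and lists were chosen with earlier results of these data known. All members are named, together with the 2 called genes of smallest adjusted p in each direction of each list. DROSHA, TARBP2, PRKRA, CTDSPL and CTDSP1 were named after their values were seen. The alternatives were other scalings and filters, DESeq2, limma-voom 3.58.1, a fit that is not robust, a length offset, a replicate block and leaving out each library.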

Additional observations from a re-analysis of the deposited data

How the results depend on the processing

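Over genes, same-numbered libraries had a correlation of -0.031 between their deviations from the group means, so that no shared shift was seen. This value cannot tell whether the libraries were made as pairs, which the titles do not say. With the replicate number as a block, 2 members were higher and 2 lower, 9 other pathway genes were higher and 15 lower, and 1613 of all genes were higher and 1968 lower.

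DESeq2's test called 1133 of all genes higher and 6 other pathway genes higher, against 1712 and 13 in the reported fit, and total counts gave 20 other pathway genes higher. Over the fits that leave out 1 library, members called ranged from 1 to 4 higher and from 1 to 4 lower, other pathway genes from 3 to 23 higher and from 5 to 21 lower, and all genes from 523 to 2724 higher and from 943 to 2804 lower. Over the same fits the log2 fold change ranged from -0.24 to 0.070 for EIF2C3 and from -0.26 to 0.0079 for DICER1, both positive without PELP1 siRNA library 2 alone, and from -0.019 to 0.11 for DROSHA, negative without PELP1 siRNA library 1 alone. The cause was not tested. EIF2C4, TNRC6A, PELP1, IPO8, DCP2, PAN2, MEST, CTDSP2, MIR17HG and MIR22HG kept their calls under all 14 alternatives. The lengths of canonical transcripts were an alternative chosen after seeing the data.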
